A study of Bos grunniens x Bos taurus and Bos grunniens with 6 samples.

Results

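Intraflagellar transport and BBSome genes were examined in testis tissue of cattle-yak and yak. They were matched by gene symbol, and the choice was made with earlier results of these data known. The symbols were those of the numbered IFT and BBS genes with BBIP1, TTC8, TTC21A, TTC21B, TTC26, WDR19, WDR34, WDR35, WDR60, CLUAP1, TRAF3IP1 and MKKS, together with the tubby-like genes TULP1 to TULP4 and the γ-tubulin complex genes TUBGCP2 to TUBGCP6. This gave 43 of the 18918 genes in the deposited table, with 42 different symbols, since IFT22 stood on a pair of genes. Of the 43 genes, 39 belong to the transport complexes, their chaperonins or the tubby-like family, and the remaining 4 (Tubgcp2, TUBGCP3, TUBGCP4 and TUBGCP5) belong to the γ-tubulin complex, which nucleates microtubules and is not part of the transport machinery. Symbols are written in the case of the table.

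The cattle-yak animals (TES5, TES6 and TES7) were male F1 offspring of a Jersey sire and a Gannan yak dam, and the yak animals (Yak8, Yak9 and Yak10) were male Gannan yaks. Each library was made from the testis of 1 animal, and all 6 animals were 4 years old. Cattle-yak and yak were kept in separate counties, and castration is named in the labels for all animals but in the study's methods only for cattle-yak, with collection after euthanasia for yak. Place and collection therefore cannot be told apart from the cross. Values are FPKM, that is fragments per kilobase of gene model, with the depth of the library divided out, obtained against the yak genome for both groups. In the sentences below, values of a group are always given in the order TES5, TES6, TES7 or Yak8, Yak9, Yak10.

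Cilia and flagella are built by trains of protein complexes that carry cargo between the membrane and the axoneme. IFT-B trains run outwards on kinesin-2 and carry tubulin and other building material, IFT-A and dynein-2 serve the way back, and the BBSome is a coat that ties membrane proteins to the trains. The chaperonin-like proteins MKKS, BBS10 and BBS12 help to assemble the BBSome. In the testis, the flagellum of the sperm is assembled in spermatids with the help of these trains, while many somatic cells carry a primary cilium that uses the same subunits.

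Between 11175100 and 11834987 fragments on genes stood behind the FPKM values of a cattle-yak library, and between 12991641 and 13136129 behind those of a yak library. Markers of round and elongating spermatids were low in cattle-yak. The summed FPKM of the 7 round spermatid markers found was 6.82 to 29.3 in the cattle-yak animals and 1646 to 2247 in the yak animals, and that of the 8 elongating spermatid markers 59.5 to 191 and 10601 to 12831. Among them LYZL4 and SPACA4 were listed at 0 in TES7 and TXNDC2 in TES6 and TES7. All 15 Sertoli, 7 Leydig and 6 myoid markers were called higher in cattle-yak, with median log2 (foldchange) values of 2.24, 1.92 and 2.01. In such bulk tissue fewer cells of a type and less RNA per cell cannot be told apart, and the part of these shifts in the results below was not tested.

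Of the 43 genes, 41 had a mean of at least 0.5 FPKM over the 6 animals and were tested. More of them were called lower in cattle-yak than higher, 17 against 2 of the 41, so that 22 were not called. Over all genes tested 54.2% were called in either direction. A gene was called at an adjusted p under 0.05 from limma together with a log2 (foldchange), cattle-yak against yak on log2 (FPKM + 1), beyond 1 in either direction. Among all 15042 genes tested, 20.8% were called lower and 33.4% higher, compared with 41.5% and 4.88% of these 41. Their median log2 (foldchange) was −0.74, beside 0.51 over all genes tested, and 35 of the 41 lay below the latter. When the fold threshold was dropped, 25 genes were lower and 7 higher at an adjusted p under 0.05, a rule that 81.9% of all genes passed. In 33 of the 41 genes every animal of 1 group lay above every animal of the other, beside 84.1% of all genes tested. Median-of-ratios scaling, which moved the median of all genes from 0.51 to about 0, turned the calls over all genes from 5023 higher and 3136 lower to 2655 higher and 4190 lower. Under it 25 of the 41 genes were called lower and none higher. The study, with a count test at the same thresholds, also reported more genes lower than higher in cattle-yak. The main test here, on FPKM not scaled between libraries, gave the opposite balance over all genes.

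**Figure D1:**
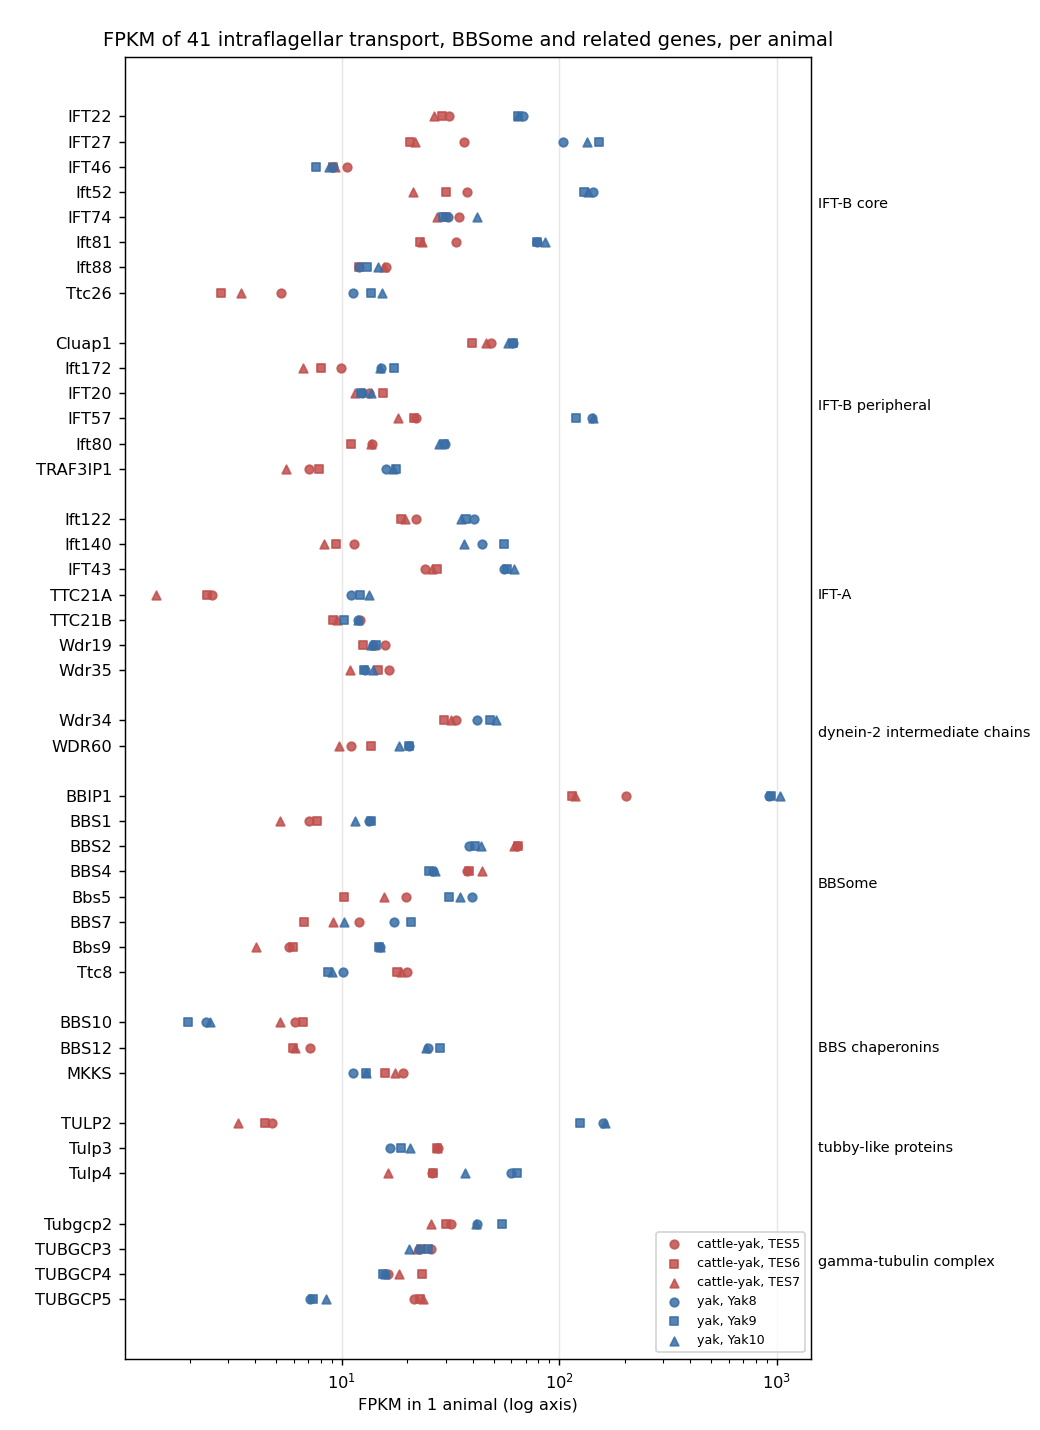
FPKM of the 41 tested genes (log axis) in each animal, ordered by role, with red symbols for the 3 cattle-yak and blue symbols for the 3 yak libraries. Blue symbols lie to the right of red ones for most genes, by the widest gap for TULP2 (4.19 against 148 FPKM on average), while Ttc8, BBS10 and TUBGCP5 are among those with the opposite order.

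Summed over all 43 genes, the level was 899 ± 108 FPKM in cattle-yak, beside 2482 ± 69.2 in yak (mean ± SD, n = 3 each), or 36.2% of the yak level. BBIP1 alone, with a gene model of 213 bases, made up 145 of the 899 FPKM and 964 of the 2482. This total was not compared without BBIP1. The sum over all 43 genes was 1023, 851 and 824 FPKM in the cattle-yak animals, highest in TES5. An exact permutation test (two-sided) gave p = 0.1, the smallest that 3 animals against 3 allow, and the Benjamini-Hochberg value over the 11 sums compared was 0.122. The levels of the genes lay closer together in cattle-yak. The SD of log2 (FPKM + 1) across the 41 genes within an animal was 1.06 to 1.13 in the cattle-yak animals and 1.47 to 1.48 in the yak animals. No such SD was computed over all genes tested, so whether this is particular to the 41 genes or to the groups below was not tested. In yak the mean levels of the 41 genes ran from 2.27 FPKM for BBS10 to 964 for BBIP1, and in cattle-yak from 2.11 for TTC21A to 145 for BBIP1.

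**Figure D2:**
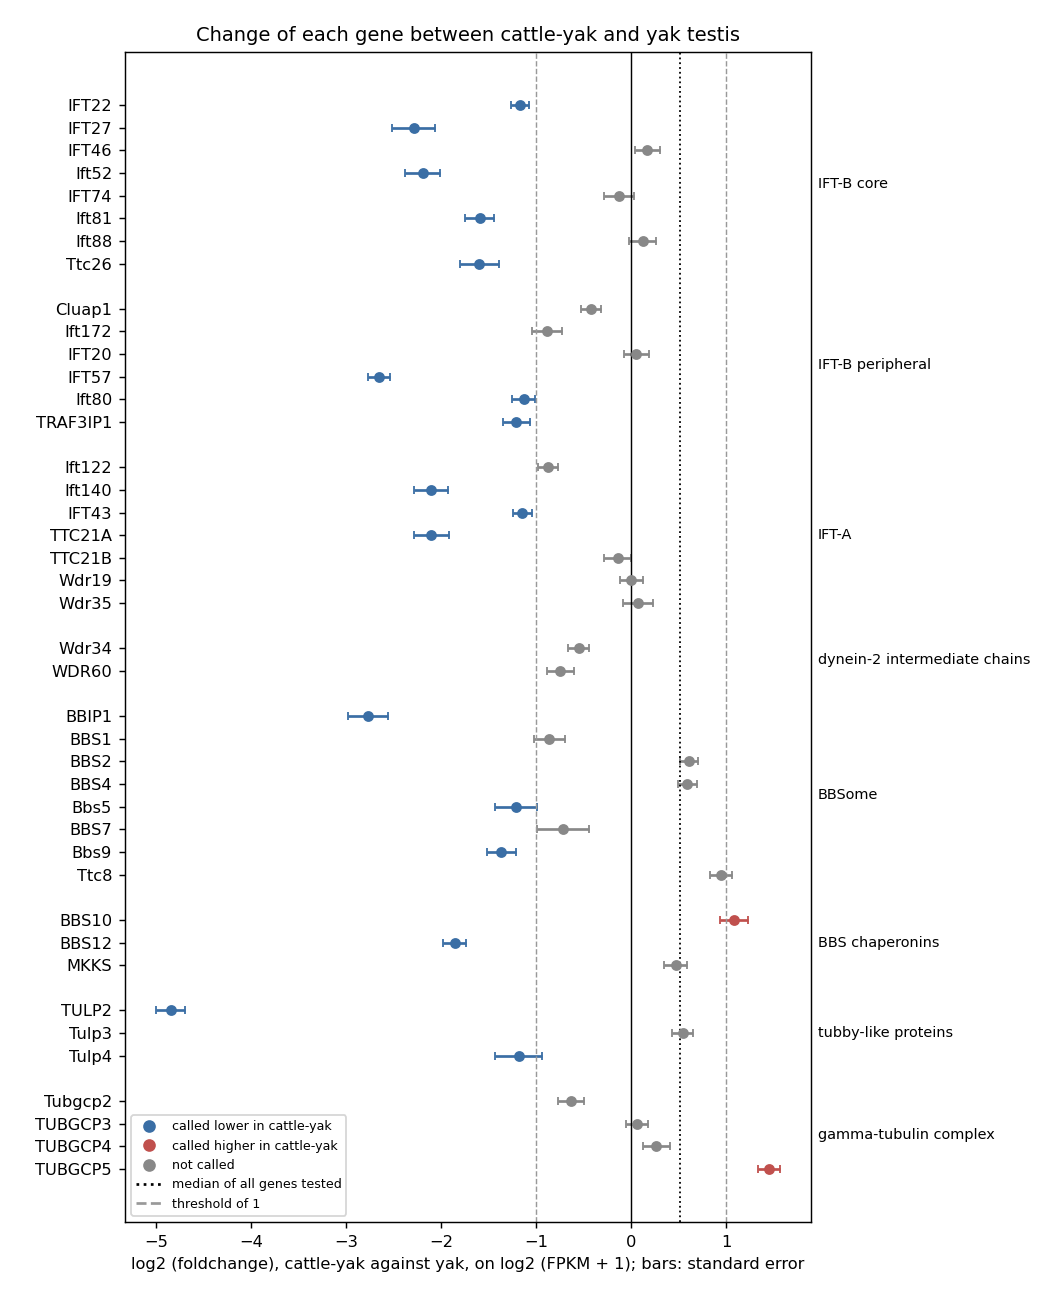
log2 (foldchange) of each gene between cattle-yak and yak (points) with its standard error from limma (bars), in blue where called lower, red where called higher and grey where not called. The dotted line marks the median of all genes tested (0.51), and in every IFT group some genes lie near 0 beside others below −1.

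The IFT-B core holds the subunits that form the backbone of the train. Of the 8 tested core genes matched by symbol, 5 were called lower and none higher, with a median log2 (foldchange) of −1.38. The 9 genes summed to 170.1 ± 30.2 FPKM in cattle-yak, beside 482 ± 21.9 in yak (mean ± SD, n = 3 each), with p = 0.1 in an exact two-sided permutation test. IFT27, a small GTPase of the core, had 36.5, 20.6 and 21.8 FPKM in cattle-yak and 104, 152 and 134 in yak (log2 (foldchange) −2.29, standard error 0.23, adjusted p = 2.7e-05). Ift52, which links the core subunits to each other, had 37.5, 30.1 and 21.3 FPKM in cattle-yak and 143, 129.6 and 136 in yak (log2 (foldchange) −2.20, standard error 0.18, adjusted p = 1.0e-05). In each of these genes the highest cattle-yak value, that of TES5, was below every yak value, and the cattle-yak mean was 20.3% of the yak mean for IFT27 and 21.8% for Ift52.

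The other core genes called lower were Ttc26 (also known as IFT56), Ift81 and IFT22, with log2 (foldchange) values of −1.60, −1.60 and −1.17. The more abundant IFT22 gene (ENSBGRG00000025621) had 30.98, 28.9 and 26.4 FPKM in cattle-yak and 68.2, 64.8 and 64.5 in yak (log2 (foldchange) −1.17, standard error 0.10, adjusted p = 1.0e-05). The second gene with this symbol (ENSBGRG00000003602) was listed at 0 in all libraries but Yak10, where it had 0.140 FPKM, and it was not tested. How the counting divided fragments between these genes is uncertain.

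Beside these, 3 core genes stood at similar levels in the groups and none of them passed the test. IFT46, a core subunit that links outer dynein arms to the train, had 10.6, 9.14 and 9.29 FPKM in cattle-yak and 9.14, 7.64 and 8.69 in yak (log2 (foldchange) 0.17, standard error 0.13, adjusted p = 0.247). Ift88, a scaffold of the core long known from mouse cilium mutants, had 15.9, 12.04 and 15.6 FPKM in cattle-yak and 12.1, 12.98 and 14.6 in yak (log2 (foldchange) 0.12, standard error 0.14, adjusted p = 0.446). IFT74, the partner with which Ift81 binds tubulin, had a log2 (foldchange) of −0.13 (adjusted p = 0.462), with overlapping groups. The core was therefore unevenly lower, and IFT46 and Ift88 turned to −0.39 and −0.45 with median-of-ratios scaling.

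The peripheral part of IFT-B connects the core with the motor and with cargo. Of its 6 genes 3 were called lower, and the median log2 (foldchange) was −1.01. They summed to 106 ± 6.94 FPKM in cattle-yak, beside 269 ± 10.9 in yak (mean ± SD, n = 3 each). IFT57, a subunit that binds kinesin-2, had 21.9, 21.4 and 18.2 FPKM in cattle-yak and 142, 119 and 143 in yak (log2 (foldchange) −2.66, standard error 0.12, adjusted p = 4.4e-07). These values rested on 549, 507 and 447 fragments in cattle-yak and 3948, 3302 and 3938 in yak. The cattle-yak mean was 15.2% of the yak mean, and the gap between the groups was wider than the range within either.

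TRAF3IP1, also known as IFT54, had 7.09, 7.86 and 5.56 FPKM in cattle-yak and 15.997, 17.7 and 17.3 in yak (log2 (foldchange) −1.21, standard error 0.14, adjusted p = 7.9e-05). Ift80 was called lower as well, at −1.13. Ift172, the longest subunit of the train, had a log2 (foldchange) of −0.88 (adjusted p = 8.7e-04), which fell short of the fold threshold and passed it without TES5 (−1.01). Cluap1, also known as IFT38, had 48.5, 39.7 and 45.9 FPKM in cattle-yak and 61.03, 61.1 and 58.2 in yak (log2 (foldchange) −0.42, standard error 0.10, adjusted p = 5.0e-03), so that its groups did not overlap although the change was small. IFT20, which also works at the Golgi, had 13.3, 15.5 and 11.5 FPKM in cattle-yak and 12.4, 12.3 and 13.6 in yak and did not pass the test (log2 (foldchange) 0.06, standard error 0.14, adjusted p = 0.71).

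Ratios between partner genes within an animal do not depend on how libraries are scaled. The ratio of Ift81 to IFT74 was 0.760 to 0.969 in the cattle-yak animals and 2.04 to 2.71 in the yak animals. For Ift52 to Ift88 it was 1.36 to 2.50 in the cattle-yak animals and 9.30 to 11.9 in the yak animals. For IFT57 to IFT20 it was 1.38 to 1.65 and 9.67 to 11.4. In every one of these pairs the animals of the groups were apart, so the genes of IFT-B stood in other proportions in cattle-yak. The SD of log2 (FPKM + 1) across the 14 tested IFT-B genes within an animal was 0.94 to 0.95 in the cattle-yak animals and 1.38 to 1.41 in the yak animals, which means that their levels were more even in cattle-yak. The pairs were chosen after the values had been seen, and the ratios are given as a description.

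**Figure D3:**
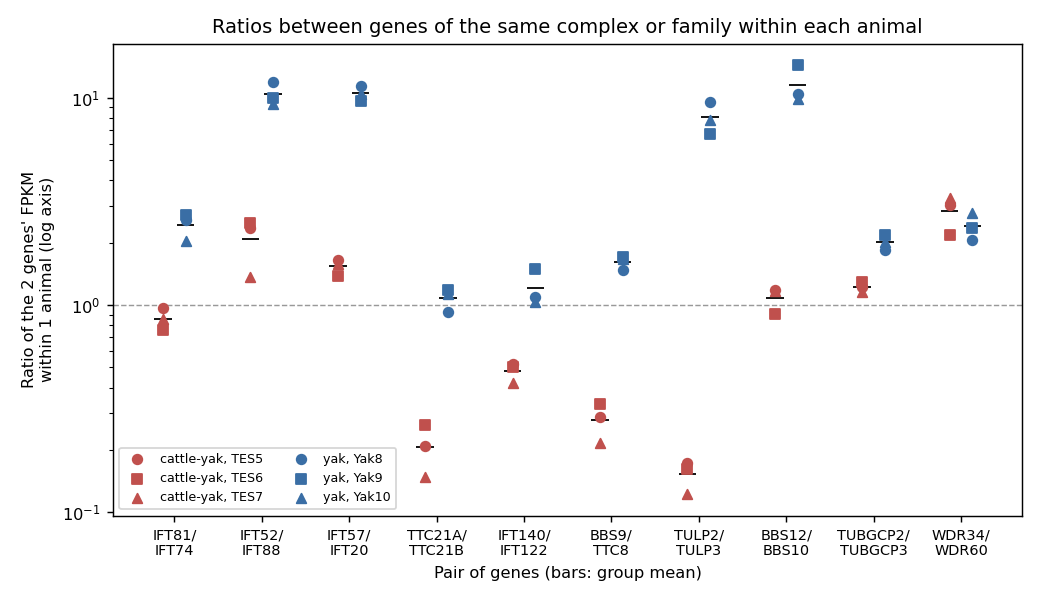
Ratio of the FPKM of 2 genes within each animal (log axis) for 10 pairs from the same complex or family, with cattle-yak in red, yak in blue and the group mean as a bar. The animals of the groups are apart in every pair except WDR34/WDR60, where cattle-yak ran from 2.19 to 3.27 and yak from 2.05 to 2.78. The pairs were chosen after the values had been seen, so the separation is a description only.

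IFT-A genes were called lower in 3 of 7 cases and higher in none, with a median log2 (foldchange) of −0.87. Their sum was 95.95 ± 7.43 FPKM in cattle-yak, beside 192 ± 7.04 in yak (mean ± SD, n = 3 each). Ift140, a core subunit of IFT-A, had 11.4, 9.36 and 8.25 FPKM in cattle-yak and 43.9, 55.5 and 36.4 in yak (log2 (foldchange) −2.11, standard error 0.18, adjusted p = 1.0e-05). TTC21A, a paralog of the retrograde subunit TTC21B, had 2.52, 2.40 and 1.40 FPKM in cattle-yak and 11.01, 12.2 and 13.4 in yak (log2 (foldchange) −2.10, standard error 0.18, adjusted p = 1.3e-05). Its low level in cattle-yak rested on 147, 132 and 80 fragments. IFT43, a small peripheral subunit, was called lower at −1.14, and Ift122 had −0.87 (adjusted p = 1.0e-04), short of the fold threshold.

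TTC21B itself had 12.1, 9.11 and 9.48 FPKM in cattle-yak and 11.9, 10.3 and 11.9 in yak and did not pass the test (log2 (foldchange) −0.14, standard error 0.14, adjusted p = 0.38). The ratio of TTC21A to TTC21B within an animal was 0.148 to 0.263 in the cattle-yak animals and 0.928 to 1.19 in the yak animals, so the paralogs stood near parity in yak and apart in cattle-yak. Wdr19 (IFT144) and Wdr35 (IFT121) are the remaining IFT-A genes described here. Wdr19 had 15.7, 12.4 and 14.05 FPKM in cattle-yak and 13.9, 14.4 and 13.7 in yak (log2 (foldchange) 0.00, standard error 0.12, adjusted p = 0.987). Wdr35 had 16.4, 14.7 and 10.9 FPKM in cattle-yak and 12.8, 12.6 and 13.9 in yak (log2 (foldchange) 0.07, standard error 0.16, adjusted p = 0.685). Their groups overlapped, and the sign of each turned negative with median-of-ratios scaling and without TES5.

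Wdr34 and WDR60 are the intermediate chains of dynein-2, the motor of the way back. Wdr34 had 33.6, 29.6 and 31.7 FPKM in cattle-yak and 41.6, 48.1 and 50.98 in yak (log2 (foldchange) −0.55, standard error 0.11, adjusted p = 1.7e-03). WDR60 had 11.03, 13.5 and 9.69 FPKM in cattle-yak and 20.3, 20.4 and 18.4 in yak (log2 (foldchange) −0.74, standard error 0.14, adjusted p = 1.2e-03). Every cattle-yak value was below every yak value in each, but neither passed the fold threshold. They summed to 43.04 ± 1.62 FPKM in cattle-yak, beside 66.6 ± 4.08 in yak (mean ± SD, n = 3 each). The ratio of Wdr34 to WDR60 within an animal overlapped between the groups. With median-of-ratios scaling both passed the fold threshold, with a median of −1.24.

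The BBSome was mixed in direction. Of its 8 genes 3 were called lower (BBIP1, Bbs9 and Bbs5) and none higher, and the median log2 (foldchange) was −0.79. Without the fold threshold 5 were lower and 3 higher at an adjusted p under 0.05. BBIP1, the smallest subunit, was the most abundant of all 43 genes in each library, with 203, 115 and 118 FPKM in cattle-yak and 917, 941 and 1033 in yak (log2 (foldchange) −2.77, standard error 0.21, adjusted p = 5.5e-06). Its gene model spans only 213 bases, so each fragment weighs heavily in FPKM, and the values rested on 511, 273 and 292 fragments in cattle-yak and 2566, 2627 and 2858 in yak. The cattle-yak mean of BBIP1 was 15.1% of the yak mean, with TES5 above TES6 and TES7.

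Bbs9, a subunit of the BBSome core, had 5.74, 5.95 and 4.01 FPKM in cattle-yak and 14.9, 14.8 and 14.996 in yak (log2 (foldchange) −1.37, standard error 0.15, adjusted p = 5.8e-05). Bbs5, which binds phosphoinositides, was called lower at −1.21, but at −0.97 without TES6 it no longer passed the fold threshold. BBS1 and BBS7 had −0.86 and −0.72 (adjusted p = 1.2e-03 and 0.0374), short of the fold threshold, and the groups of BBS7 overlapped.

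In contrast, 3 subunits had their higher values in cattle-yak. Ttc8, also known as BBS8, had 19.96, 17.9 and 18.7 FPKM in cattle-yak and 10.1, 8.68 and 9.03 in yak (log2 (foldchange) 0.95, standard error 0.12, adjusted p = 9.2e-05). BBS2 had 63.5, 64.5 and 61.6 FPKM in cattle-yak and 38.6, 40.8 and 43.8 in yak (log2 (foldchange) 0.61, standard error 0.09, adjusted p = 3.1e-04). BBS4 had a log2 (foldchange) of 0.59 (adjusted p = 7.7e-04). Every cattle-yak value of these genes was above every yak value, and none passed the fold threshold. With median-of-ratios scaling BBS4 stood at −0.01 and BBS2 at 0.00, while Ttc8 remained positive at 0.38. With a pseudocount of 0.1 Ttc8 passed the fold threshold.

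The ratio of Bbs9 to Ttc8 within an animal was 0.215 to 0.331 in the cattle-yak animals and 1.47 to 1.71 in the yak animals. The summed level of the 8 BBSome genes was 304 ± 56.3 FPKM in cattle-yak, beside 1119 ± 57.1 in yak (mean ± SD, n = 3 each), with p = 0.1 in an exact two-sided permutation test. Without BBIP1, left out after its values had been seen, the other 7 summed to 158 ± 7.15 FPKM in cattle-yak, beside 156 ± 4.46 in yak (mean ± SD, n = 3 each), a difference smaller than either SD, with p = 0.7 in the same exact permutation test. In FPKM not scaled between libraries, the lower sum in cattle-yak was therefore carried by BBIP1, while the other subunits differed in both directions. Median-of-ratios scaling, which divides cattle-yak values by 1.22 to 1.27 and yak values by 0.794 to 0.826, would lower the former against the latter. The sum of these 7 was not compared under it. The SD of log2 (FPKM + 1) across these 7 within an animal was 1.17 to 1.37 in the cattle-yak animals and 0.73 to 0.87 in the yak animals, so that they lay further apart in cattle-yak. With BBIP1 included the order was the opposite, with 1.54 to 1.63 in the cattle-yak animals and 2.03 to 2.18 in the yak animals.

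**Figure D4:**
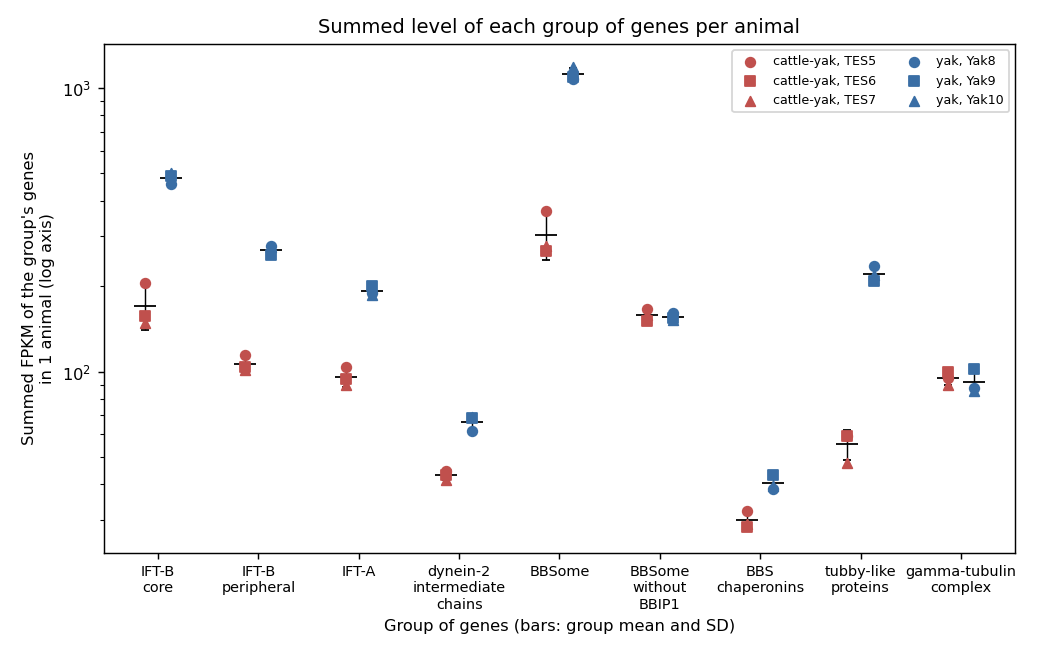
Summed FPKM of each group of genes in each animal (log axis), not scaled between libraries, with cattle-yak in red, yak in blue, and the group mean and SD as bars. The groups are apart for IFT-B, IFT-A, the dynein-2 chains, the BBSome, the chaperonins and the tubby-like genes, and overlap for the BBSome without BBIP1 and for the γ-tubulin complex.

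The chaperonin-like genes moved in different directions. BBS12 had 7.14, 5.96 and 6.08 FPKM in cattle-yak and 24.8, 28.2 and 24.3 in yak (log2 (foldchange) −1.86, standard error 0.12, adjusted p = 3.1e-06). BBS10 had 6.07, 6.60 and 5.21 FPKM in cattle-yak and 2.39, 1.97 and 2.47 in yak (log2 (foldchange) 1.09, standard error 0.15, adjusted p = 1.9e-04). MKKS, also known as BBS6, had 19.1, 15.9 and 17.6 FPKM in cattle-yak and 11.3, 12.98 and 12.9 in yak (log2 (foldchange) 0.47, standard error 0.12, adjusted p = 6.8e-03). BBS12 was thus called lower and BBS10 higher, and MKKS was short of the fold threshold with the groups apart. The ratio of BBS12 to BBS10 was 0.903 to 1.18 in the cattle-yak animals and 9.84 to 14.3 in the yak animals. BBS10 was no longer called with median-of-ratios scaling (0.60) and was not tested with a minimum of 5 FPKM, which its mean over the animals did not reach.

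Tubby-like proteins bind phosphoinositides, and TULP3 delivers receptors to the cilium together with IFT-A. TULP2, a member of the family found mainly in the testis, showed the largest fall of the 43 genes, with 4.80, 4.43 and 3.33 FPKM in cattle-yak and 159, 125 and 162 in yak (log2 (foldchange) −4.85, standard error 0.15, adjusted p = 1.2e-07). Its values rested on 94, 82 and 64 fragments in cattle-yak and 3455, 2709 and 3475 in yak, and the cattle-yak mean was 2.82% of the yak mean. It ranked 356 from the lowest log2 (foldchange) among the 15042 genes tested.

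Tulp4, the most divergent member, had 26.1, 26.3 and 16.4 FPKM in cattle-yak and 60.2, 64.2 and 36.7 in yak (log2 (foldchange) −1.18, standard error 0.25, adjusted p = 2.2e-03). Leaving out TES7 brought it to −0.97, where it was no longer called. Tulp3 had 27.7, 27.4 and 27.2 FPKM in cattle-yak and 16.6, 18.6 and 20.6 in yak (log2 (foldchange) 0.54, standard error 0.11, adjusted p = 2.0e-03), higher in every cattle-yak animal but short of the fold threshold, and −0.05 with median-of-ratios scaling. TULP1, known from photoreceptors, had 0.809, 1.20 and 0.578 FPKM in cattle-yak and 0.0729, 0.219 and 0.111 in yak, on 20, 28 and 14 and 2, 6 and 3 fragments, and was under the minimum for the test. The 4 genes summed to 55.4 ± 6.83 FPKM in cattle-yak, beside 221 ± 13.99 in yak (mean ± SD, n = 3 each), and the ratio of TULP2 to Tulp3 was 0.122 to 0.173 in the cattle-yak animals and 6.70 to 9.58 in the yak animals.

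Of the 4 γ-tubulin complex genes none was called lower and 1 was called higher, with a median log2 (foldchange) of 0.17. Whether they differ from the transport genes was not tested. TUBGCP5, a subunit of the γ-tubulin ring, had 21.4, 22.9 and 23.5 FPKM in cattle-yak and 7.12, 7.37 and 8.44 in yak (log2 (foldchange) 1.45, standard error 0.12, adjusted p = 8.2e-06). Tubgcp2, which with TUBGCP3 forms the small γ-tubulin complex, had 31.6, 30.03 and 25.8 FPKM in cattle-yak and 41.99, 54.5 and 41.2 in yak (log2 (foldchange) −0.63, standard error 0.14, adjusted p = 2.9e-03). TUBGCP3 had 25.8, 23.1 and 22.2 FPKM in cattle-yak and 22.7, 24.9 and 20.3 in yak (log2 (foldchange) 0.06, standard error 0.12, adjusted p = 0.62). TUBGCP5 was therefore higher in every cattle-yak animal, Tubgcp2 lower but short of the fold threshold, and TUBGCP3 overlapped.

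TUBGCP4 had 16.4, 23.3 and 18.2 FPKM in cattle-yak and 15.8, 15.5 and 15.7 in yak and did not pass the test (log2 (foldchange) 0.27, standard error 0.14, adjusted p = 0.109). The 4 genes summed to 94.8 ± 4.83 FPKM in cattle-yak, beside 91.9 ± 9.09 in yak (mean ± SD, n = 3 each), with p = 0.7 in an exact two-sided permutation test. The SD of log2 (FPKM + 1) across them was 0.18 to 0.39 within a cattle-yak animal and 0.89 to 1.15 within a yak animal, so their levels lay closer together in cattle-yak. With median-of-ratios scaling TUBGCP5 had 0.88 and was not called, and Tubgcp2 was called lower at −1.23. The sum of the 4 genes was not compared under that scaling.

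The cattle-yak animals were not alike. Of the 17 genes called lower, 13 had their highest cattle-yak value in TES5, 4 in TES6 and none in TES7. Among all 3136 genes called lower, TES5 was highest in 63.9%. TES5 also had the highest summed level of round spermatid markers, 29.3 FPKM, beside 19.6 in TES6 and 6.82 in TES7. Whether these values bear on each other was not tested. Every one of the 41 genes lay between the median of the round spermatid markers (−5.32) and that of the Sertoli markers (2.24) in log2 (foldchange), and 16 lay above the median of the 9 spermatocyte markers (−0.29). The median of all genes tested (0.51) also lies in that wide interval and above −0.29. The share of all genes was not counted for either comparison.

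In the annotation of the deposited table, 38 of the 43 genes carried GO terms. The term cilium was on 32 of them, of 163 genes in the table, and cilium assembly on 21 of 161. Only IFT27, Ift81 and IFT20, of 309 genes in the table, carried the term spermatogenesis. The term intraciliary transport was on 10 of the genes, and 7 of these 10 were called lower, with a median log2 (foldchange) of −1.40. The 31 tested genes with the term cilium had 16 called lower and 1 higher (median −1.13). Among the 123 tested genes with the term cilium outside the 43, 62 were called lower and 19 higher (50.4% and 15.4%), with a median of −1.06. Over all genes tested 20.8% were called lower and 33.4% higher.

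Motors and cargo regulators of the trains were taken from a list of further pathway genes. The list also held TTC30A, TTC30B and HSPB11, IFT-B core subunits that the chosen symbols did not match. Of its 25 genes tested 11 were called lower and 3 higher, with a median log2 (foldchange) of −0.81. Among these, TTC30A and TTC30B were called lower (−1.69 and −1.39) and HSPB11 was not called (0.18). Kif17, a homodimeric kinesin-2, had 21.8, 11.6 and 4.08 FPKM in cattle-yak and 463, 497 and 471 in yak (log2 (foldchange) −5.39, standard error 0.45, adjusted p = 1.1e-05). INPP5E, a ciliary phosphoinositide phosphatase, had 1.71, 0.906 and 1.35 FPKM in cattle-yak and 15.9, 16.2 and 8.89 in yak (log2 (foldchange) −2.63, standard error 0.25, adjusted p = 1.9e-05). These were the largest falls in the list, and the cattle-yak values of Kif17 were spread widely, with TES5 highest.

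For the heterotrimeric kinesin-2, KIF3B was called lower at −2.47 and its accessory subunit KIFAP3 at −1.34, while KIF3A had −0.81 and was short of the fold threshold. The dynein-2 heavy chain Dync2h1 had −0.67 (adjusted p = 1.3e-03) and its light intermediate chain DYNC2LI1 −0.32 (adjusted p = 0.0711), with every cattle-yak value below every yak value in each. Apart from Kif17, these motor genes were singled out after their values had been seen. Ccdc28b, a regulator of the BBSome, and DYNLRB1, a dynein light chain shared with cytoplasmic dynein, were the largest rises, at 1.86 and 1.58.

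The transition zone is the gate at the base of the cilium. Of its 21 genes tested 5 were called lower and 1 higher, with a median log2 (foldchange) of −0.39. The share called lower, 23.8%, was near the 20.8% of all genes tested, and the share called higher, 4.76%, was below their 33.4%. B9D1 and B9D2, which act together in this gate, had −2.36 and −1.90, and TCTN2 was called higher at 1.05. Among 15 partners of the γ-tubulin complex 2 were called lower and 5 higher (median 0.42). The 33.3% called higher and the median were near those of all genes tested (33.4% and 0.51). The largest changes were those of HAUS4 and CDK5RAP2 at −2.34 and −1.77 and of HAUS7 and MZT1 at 1.52 and 1.44. HAUS4 and HAUS7 are subunits of augmin, which recruits γ-tubulin to microtubules, and MZT1 is a small protein bound to the γ-tubulin complex. With median-of-ratios scaling 10 transition zone genes were lower and none higher, and the balance of the γ-tubulin partners turned to 5 lower and 1 higher.

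The list of cilium transcription factors had the lowest median of these companion lists, −2.33, with 7 of 9 tested genes called lower and 1 higher. It took in RFX family members such as RFX5 (−1.54, called lower) and RFX7 (0.58, not called). Whether these act on cilium genes was not tested. Rfx4, a relative of RFX2, had 4.06, 2.10 and 0.829 FPKM in cattle-yak and 65.2, 55.3 and 45.03 in yak (log2 (foldchange) −4.18, standard error 0.34, adjusted p = 8.0e-06). RFX2, which drives ciliary genes in spermatids, had 3.81, 1.91 and 1.16 FPKM in cattle-yak and 42.6, 55.8 and 24.03 in yak (log2 (foldchange) −3.67, standard error 0.36, adjusted p = 2.5e-05). MYB was called higher at 1.74. In Rfx4 and RFX2 the highest cattle-yak value was again that of TES5.

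**Figure D5:**
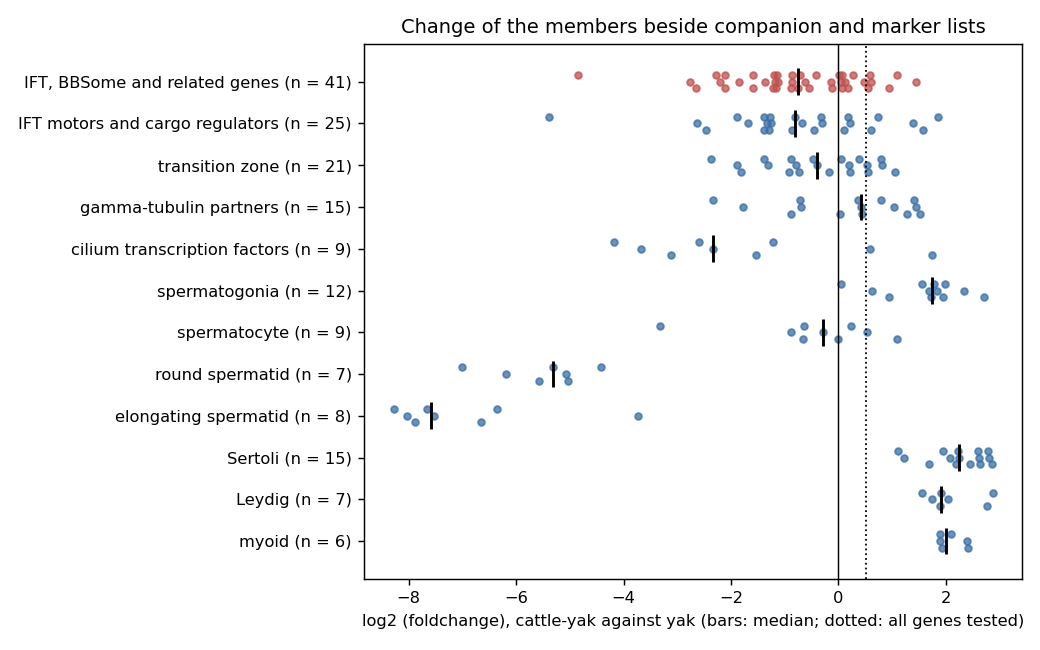
log2 (foldchange) of the 41 tested genes (red) beside that of companion pathway lists and marker lists of cell types (blue), with 1 point a gene, the median of each list as a bar and the median of all genes tested as a dotted line. The 41 genes have a median of −0.74, between those of the round spermatid (−5.32) and Sertoli lists (2.24), as is that of all genes tested (0.51).

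Markers of other cell types were measured in the same fit. Of 12 spermatogonia markers 9 were called higher and none lower (median 1.75), and of 9 spermatocyte markers 1 was called higher and 1 lower (4 lower and none higher with median-of-ratios scaling). Endothelial markers had 3 of 6 called higher and 1 lower, and macrophage markers 3 of 6 higher and 2 lower, against none and 1 higher with that scaling. For epididymal and ciliated epithelium, which could add ciliary genes to a tissue block, 3 of 5 tested markers were called lower and none higher, one of them being FOXJ1, which also stands among the transcription factors. CRISP1, a defining epididymal gene, was listed at 0 in every yak library and at 0.180 to 0.463 FPKM in cattle-yak. SLC9A3, not tested either, had a mean of 0.0750 FPKM in cattle-yak and 0.0186 in yak. WFDC2, which the study lists among Sertoli cell markers, and Pax8 had lower means in cattle-yak, as the called markers did, without being called. WFDC2 had 0.317, 0.383 and 0.138 FPKM in cattle-yak and 6.40, 0.245 and 0.907 in yak, so that Yak8 stood out. Pax8 was higher in every yak animal than in any cattle-yak animal, and highest in Yak8 (1.45 FPKM). The summed level of this list was 12.7 to 17.9 FPKM in the cattle-yak animals and 35.3 to 46.5 in the yak animals, and its part in the values of the transport genes was not tested.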

How the data were processed

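Per the study's methods, reads were trimmed with Trimmomatic and mapped with HISAT2 to the yak genome LU_Bosgru_v3.0, and FPKM per gene were calculated with Cufflinks, tool versions not being given in the sources used here. The FPKM values deposited by the authors hold 1 value per gene and library, not scaled between libraries. Columns were matched to samples by title. Differences in mapping between cattle-yak and yak alleles on the yak reference were not tested.

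Whole fragments were recovered from the ratios of FPKM between libraries for 17973 genes, all those with at least 2 values above 0, and gene lengths came out within 0.02 of a whole base for 100.0% of them. On simulated data 99.1% of genes were returned exactly. On 1 kb of gene model a single fragment was worth 0.0761 to 0.0895 FPKM.

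A two-sided test by limma 3.58.1 (R 4.3.3, prior variance with a trend) was run on log2 (FPKM + 1) for the 15042 genes whose mean reached 0.5 FPKM and adjusted over all of them by Benjamini-Hochberg. This scale understates the change of low genes. On simulated data, which used the yak means for both groups, limma called 198 of 200 genes changed 4-fold. It also called 3 unchanged genes, among 14594 tested with the changed ones included. With so few genes changed, the simulation lacks the wide shift between the groups seen here and cannot give the error rate of the real calls. Sums over genes were compared with exact permutation tests. Python 3.11.15, numpy 2.4.6, pandas 2.3.3, scipy 1.17.1 and matplotlib 3.10.9 were used.

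The genes, role groups, companion lists and marker lists were chosen with earlier results of these data known, so they are described by counts and medians. In each role group, values per animal are given for the 2 genes with the highest and the 2 with the lowest log2 (foldchange), and for all genes in groups of up to 4. In companion lists the 2 called genes with the largest change in each direction are named, and a symbol on several genes is represented by its most abundant gene. Alternatives were pseudocounts of 0.1 and 0.01, no filter or a minimum of 5 FPKM, median-of-ratios and TPM scaling, limma without a trend, voom on the recovered fragments, no fold threshold, and leaving out each animal. Promoter and protein sequences were not analysed here.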

Additional observations from a re-analysis of the deposited data

How the results depend on the processing

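Of the 17 genes called lower, 15 kept the call under all 14 alternatives that kept the fold threshold, the exceptions being Bbs5 without TES6 and Tulp4 without TES7. Neither of the 2 genes called higher kept it under all of them, and 13 of the 22 others were called under none of these 14. Median-of-ratios scaling moved most values. Under it none of the genes described here was called higher, neither among the chaperonins nor the γ-tubulin genes, and 5 peripheral IFT-B, 2 dynein-2, 5 BBSome and 1 γ-tubulin genes were called lower. The medians became −1.32 over all genes described, −1.95 in the IFT-B core, −1.58 in peripheral IFT-B, −1.47 in IFT-A, −1.24 in dynein-2, −1.35 in the BBSome, −0.11 in the chaperonins, −1.78 in the tubby-like genes and −0.42 in the γ-tubulin genes. Values above 0 turned to −0.39 for IFT46, −0.45 for Ift88, −0.52 for IFT20, −0.58 for Wdr19, −0.50 for Wdr35, −0.0073 for BBS4, −0.11 for MKKS, −0.051 for Tulp3, −0.53 for TUBGCP3 and −0.32 for TUBGCP4. Without the fold threshold 7 genes were higher, 3 of them in the BBSome, 2 among the chaperonins and 1 tubby-like, and 5 peripheral IFT-B, 2 dynein-2, 5 BBSome and 1 γ-tubulin genes were lower. With a minimum of 5 FPKM, which removed BBS10, 1 of the genes described here was called higher, and 0 among the chaperonins, whose median was −0.69. With pseudocounts of 0.1 and 0.01 and with voom 1 BBSome gene (Ttc8) was called higher, and the peripheral IFT-B median was −1.07, −1.08 and −1.08. The median of the tubby-like genes rose to −0.30 with TPM and −0.32 without a filter, which let TULP1 in.

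With 1 animal left out, the median over the genes described here ranged from −0.91 to −0.63, that of peripheral IFT-B from −1.10 to −0.92, that of the tubby-like genes from −1.29 to −0.25 (highest without Yak9, when TULP1 was tested too) and that of the γ-tubulin genes from 0.11 to 0.20. The BBSome had 0 to 1 genes called higher (Ttc8 without Yak8), and the tubby-like genes 1 to 2 called lower. Small changes turned sign with 1 animal left out: IFT74 ranged from −0.23 to 0.028 (above 0 without Yak10), IFT20 from −0.044 to 0.15 (below 0 without TES6), Wdr19 from −0.076 to 0.082 (below 0 without TES5, Yak8 or Yak10), Wdr35 from −0.045 to 0.23 (below 0 without TES5) and TUBGCP3 from −0.0074 to 0.13 (below 0 without Yak10). The cause was not tested beyond these settings. No paired analysis was possible because the replicate numbers are accession-order names and no label ties a cattle-yak animal to a yak animal. Low genes such as TULP1 and TTC21A rest on few fragments, which limits their precision, and 3 animals against 3 cannot go below p = 0.1 in a permutation test.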
